A study of Homo sapiens with 16 samples.

Results

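The 10 genes described here encode feedback inhibitors of MAP kinase signalling and products of immediate early genes: the MAP kinase phosphatases DUSP1, DUSP4, DUSP5 and DUSP6, the Sprouty proteins SPRY2 and SPRY4, the transcription factor EGR1, the synaptic protein ARC, and the stress- and growth-factor-induced proteins IER3 and PHLDA1. They were taken by symbol from 44591 gene rows in each of 2 count tables, every symbol was found, and all 10 passed the filter on low counts. RNA came from the NCI-H1688 line of human small cell lung cancer, cultured for 24 h with a drug or without one and sequenced in 8 groups of 2 libraries that the labels describe as biological duplicates. The groups were sanguinarine chloride (1 µM), cepharanthine (3 µM) and evodiamine (3 µM), which are plant alkaloids, followed by a control that is called untreated on the libraries and DMSO in the series description. The remaining groups were sanguinarine with (+)-JQ-1 (28 µM, written JQ1 below, an inhibitor of BET bromodomain proteins), JQ1 alone, sanguinarine with panobinostat (60 nM, a histone deacetylase inhibitor) and panobinostat alone. The first table holds the alkaloids given alone and the control, and the second holds JQ1, panobinostat and their combinations with sanguinarine. As the second table has no control library, a difference in level between the tables cannot be told apart from a drug's effect, and levels were compared within a table. Only the interactions set a change in one table against a change in the other. All groups come from a single established cell line.

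In the ERK branch of MAP kinase signalling, a growth factor receptor activates RAS, RAF, MEK and then ERK, a kinase that phosphorylates transcription factors such as ELK1 and so switches on immediate early genes, whose transcription needs no new protein synthesis. The pathway also switches on its own brakes. DUSP proteins remove the activating phosphates from MAP kinases, with DUSP6 in the cytoplasm and DUSP5 in the nucleus both selective for ERK, DUSP4 a nuclear phosphatase of several MAP kinases and DUSP1 acting most on p38 and JNK, while Sprouty proteins act between the receptor and RAF. EGR1 is a zinc finger transcription factor bound at GC-rich promoter elements, ARC is a neuronal protein known for endocytosis of glutamate receptors, IER3 is an apoptosis regulator that also prolongs ERK activity, and PHLDA1 carries a pleckstrin homology domain and is used with DUSP6, SPRY2 and SPRY4 in transcript signatures of MAPK activity.

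Promoter windows, the 250 bases before a transcription start, were available in the RefSeq GRCh38.p14 table for 6 of the 10 genes, namely DUSP1, DUSP6, SPRY2, SPRY4, EGR1 and PHLDA1, with 8 starts in all. The windows below belong to the genes on which the results turn: EGR1, which rose with sanguinarine alone and in both combinations, DUSP1, which fell with sanguinarine alone, and DUSP6 and SPRY4, whose change with sanguinarine differed between the backgrounds. Capitals mark motifs that were searched for on both strands, and no matches overlapped.
EGR1 (chr5:138465229-138465478, plus strand): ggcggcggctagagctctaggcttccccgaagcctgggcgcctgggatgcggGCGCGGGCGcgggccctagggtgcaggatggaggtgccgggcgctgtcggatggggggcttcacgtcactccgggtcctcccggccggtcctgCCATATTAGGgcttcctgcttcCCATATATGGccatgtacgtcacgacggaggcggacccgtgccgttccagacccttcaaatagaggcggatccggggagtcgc
DUSP1 (chr5:172771196-172771445, minus strand): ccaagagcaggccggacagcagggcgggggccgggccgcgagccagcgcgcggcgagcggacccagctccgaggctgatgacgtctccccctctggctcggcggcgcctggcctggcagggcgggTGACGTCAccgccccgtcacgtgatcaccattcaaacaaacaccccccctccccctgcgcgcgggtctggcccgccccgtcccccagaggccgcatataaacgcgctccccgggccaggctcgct
DUSP6 (chr12:89352502-89352751, minus strand): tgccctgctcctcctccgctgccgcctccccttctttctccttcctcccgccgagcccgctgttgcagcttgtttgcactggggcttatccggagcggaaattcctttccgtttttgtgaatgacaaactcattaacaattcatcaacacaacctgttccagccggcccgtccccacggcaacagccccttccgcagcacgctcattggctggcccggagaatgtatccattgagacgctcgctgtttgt
SPRY4 (chr5:142324248-142324497, minus strand): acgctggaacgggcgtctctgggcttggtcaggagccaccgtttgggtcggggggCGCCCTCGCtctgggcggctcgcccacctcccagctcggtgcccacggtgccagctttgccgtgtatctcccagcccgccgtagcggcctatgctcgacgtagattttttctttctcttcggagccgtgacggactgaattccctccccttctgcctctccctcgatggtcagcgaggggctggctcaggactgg

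The EGR1 window held 2 CArG boxes, the element bound by serum response factor, beginning 105 and 83 bases before the start. A CArG box occurred in 1.16% of the 35116 windows in the table. The same window held an EGR site (GCGNGGGCG) 198 bases before the start, and SPRY4 held one, read on the other strand, at 195 bases. SPRY2, with 3 starts in the table, held EGR sites 134 and 41 bases before its first start, and the EGR site occurred in 8.41% of all windows. The DUSP1 window held the full cyclic AMP response element TGACGTCA at 125 bases, which occurred in 1.65% of all windows. The windows of DUSP6 and PHLDA1 held none of these letters, nor the AP-1 site TGANTCA (6.57% of all windows) or the ETS site CCGGAAGT (3.42%), which no window of the 6 genes held. These matches describe the letters of the windows and are not evidence of binding.

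Counted reads per library ran between 39996881 and 64060919. Duplicates differed beyond counting noise in every group. Chi-square divided by its degrees of freedom was 4.92 in sanguinarine cells, the lowest. It was 27.2 in sanguinarine with JQ1 and 83.8 in sanguinarine with panobinostat, the least alike pair. The tests used a spread for each gene that was estimated over all groups together. The least alike pair therefore enters every test, and SEs for its own group do not measure its spread alone. In the second table it is the titles with S- in front that are labelled as a single drug. HMOX1, a gene induced by oxidative stress, was at 424 and 443 RPKM (reads scaled to gene model length in kilobases and to library total) in the libraries labelled sanguinarine with JQ1, against 6.20 and 6.04 RPKM in those labelled JQ1, and at 123 and 138 RPKM in those labelled sanguinarine with panobinostat, against 5.65 and 5.53 RPKM in those labelled panobinostat. With sanguinarine alone it was at 144 and 123 RPKM, against 0.901 and 1.07 RPKM in control cells, so HMOX1 was high in every library labelled with sanguinarine. AKR1C1 separated the labels less on panobinostat, at 6.34 and 9.80 RPKM in the combination against 4.55 and 5.65 RPKM. It was at 34.8 and 37.4 RPKM in sanguinarine with JQ1, against 2.47 and 2.63 RPKM with JQ1. With sanguinarine alone AKR1C1 was at 88.7 and 72.1 RPKM, against 1.61 and 1.41 RPKM in control cells. Of the markers of small cell lung cancer and its subtypes, INSM1 had 6 reads over all libraries, NEUROD1 had 0 and CHGA stayed at or under 0.416 RPKM, whereas YAP1 was at 13.6 to 52 RPKM. SYP and NCAM1 reached at most 0.286 and 0.028 RPKM in the first table but 14.5 and 11.4 RPKM in the second, and POU2F3 and DLL3 reached 1.58 and 1.87 RPKM there. The epithelial marker EPCAM was at 53 to 115 RPKM, and the keratin KRT8 reached 770 to 2300 RPKM. The summed level of 5 epithelial markers was 2030 to 2160 RPKM in sanguinarine with JQ1, against 4410 to 4500 RPKM with JQ1, and 2360 to 2490 RPKM in sanguinarine with panobinostat, against 2980 to 3000 RPKM with panobinostat, and its part in the results was not tested. Of the markers of other cells, 1 of 5 for fibroblasts (COL1A1), 1 of 4 for leukocytes (CD68) and 1 of 3 for endothelium (CDH5) reached 1 RPKM in some library, while PTPRC, COL1A2, PECAM1 and VWF stayed under it. The summed leukocyte markers, nearly all CD68, were at 16.8 to 18.5 RPKM in sanguinarine with JQ1, against 5.14 to 6.12 RPKM with JQ1, at 16.9 to 23 RPKM in sanguinarine with panobinostat, against 7.63 to 8.58 RPKM with panobinostat, and at 9.98 to 10 RPKM with sanguinarine, against 7.21 to 8.19 RPKM in control cells. The summed endothelial markers were at 1.13 to 1.19 RPKM with sanguinarine, against 4.64 to 4.67 RPKM in control cells. CD68 was called higher in both combinations and CDH5 lower with sanguinarine alone, and the part of these markers in the results was not tested. The medians of all genes lay higher by library totals than by TMM scaling in the sanguinarine comparisons (0.15 against 0.01 on the log2 scale for sanguinarine and control), so RPKM values can differ where the TMM-scaled test finds little.

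The 10 genes covered a wide range of levels. In control cells IER3 was highest at 442 ± 9.3 RPKM (mean ± SD, n = 2, as for all such values), followed by PHLDA1 at 93.8 ± 1.3, DUSP1 at 70.2 ± 0.008, DUSP4 at 39.2 ± 0.08, DUSP5 at 22.6 ± 0.24 and DUSP6 at 17.2 ± 0.09 RPKM. EGR1 at 6.94 ± 0.56, SPRY4 at 6.10 ± 0.10 and SPRY2 at 3.74 ± 0.26 RPKM were lower still. EGR1 and SPRY4, neighbours in this order, lay close together, with 6.54 and 7.33 RPKM for EGR1 and 6.03 and 6.17 RPKM for SPRY4. ARC was barely detected, with 3 and 6 reads in the control libraries (0.031 ± 0.010 RPKM). It was the one gene of the set with fewer than 10 reads in some library.

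**Figure D1:**
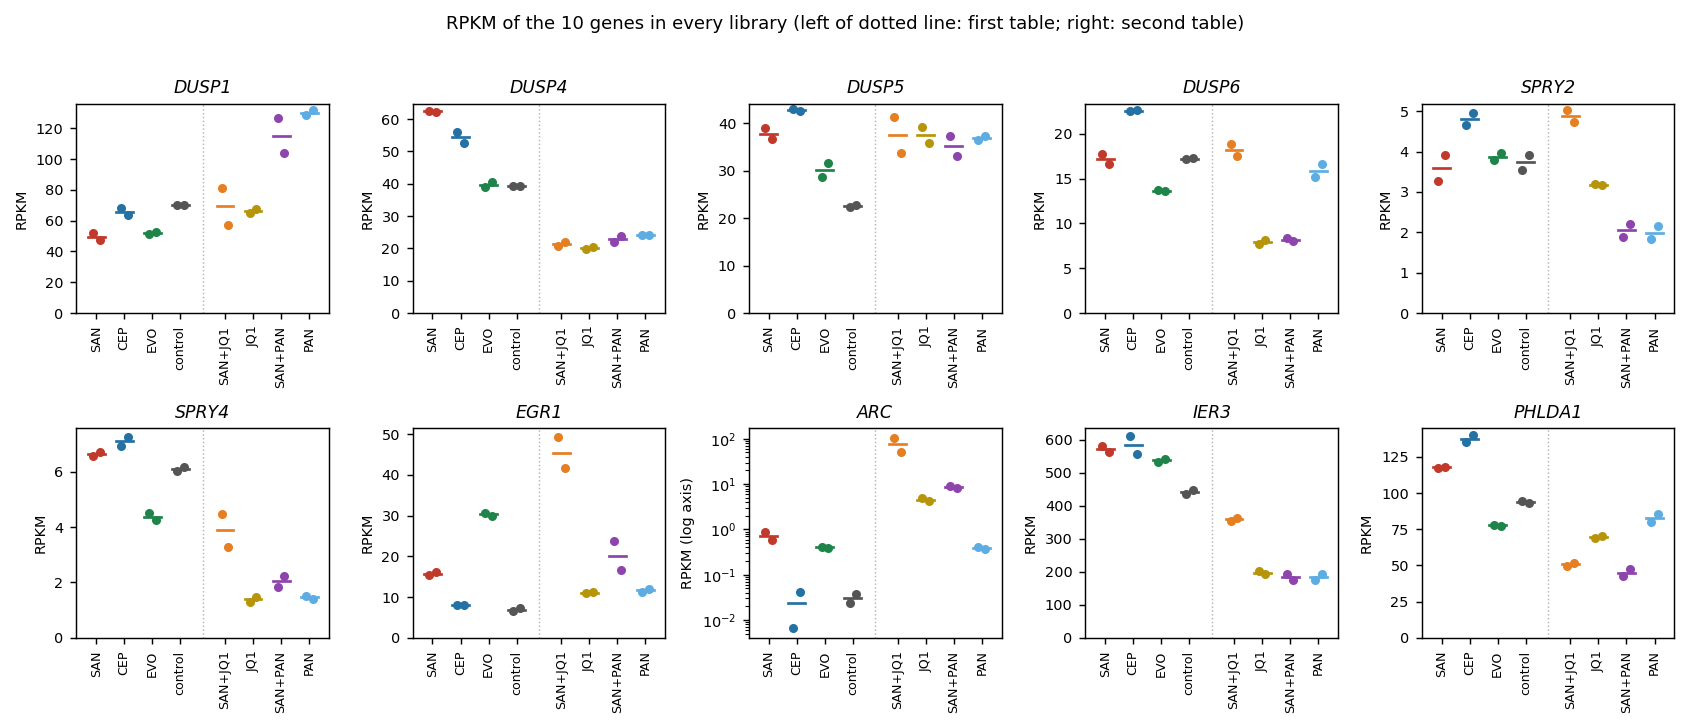
Deposited RPKM of each of the 10 genes in all 16 libraries (vertical axes in RPKM, on a log axis for ARC only, 1 point per library, horizontal bar at the group mean, SAN for sanguinarine, CEP for cepharanthine, EVO for evodiamine and PAN for panobinostat). ARC spans from 0.0066 RPKM in a cepharanthine library to 105 RPKM in a library of sanguinarine with JQ1, whereas IER3 stays between 176 and 613 RPKM.

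With sanguinarine alone, 5 of the 10 genes were called changed against control: EGR1, ARC, DUSP4 and DUSP5 rose and DUSP1 fell. The background is high, as 22.0% of the 22263 genes tested were called in this comparison by the edgeR quasi-likelihood test at an adjusted p under 0.05, 11.7% higher and 10.3% lower. DUSP4 was at 62.6 and 62.3 RPKM with sanguinarine, against 39.2 and 39.3 RPKM in control cells, a log2 change of 0.54 ± 0.08 (SE, adjusted p = 9.4e-05). DUSP5 was at 38.9 and 36.7 RPKM, against 22.5 and 22.8 RPKM in control cells (0.61 ± 0.11, adjusted p = 0.00072). For both, the lower sanguinarine library lay above both control libraries. DUSP1 fell to 52.1 and 47.3 RPKM with sanguinarine, against 70.2 RPKM in each control library, a log2 change of -0.63 ± 0.14 (adjusted p = 0.0021).

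DUSP6, the cytoplasmic ERK phosphatase, was at 17.8 and 16.6 RPKM with sanguinarine and 17.2 and 17.3 RPKM in control cells, so the groups overlapped. SPRY2 overlapped as well, with 3.28 and 3.92 RPKM under sanguinarine and 3.55 and 3.92 RPKM in control cells. SPRY4 was at 6.56 and 6.71 RPKM, against 6.03 and 6.17 RPKM in control cells, and its TMM-scaled log2 difference was -0.02 (adjusted p = 0.98), with the sign turning to 0.12 by library totals. IER3, at 583 and 565 RPKM against 436 and 449 RPKM in control cells, and PHLDA1, at 117 and 118 RPKM against 94.8 and 92.9 RPKM in control cells, did not overlap but missed the threshold (log2 differences of 0.24 and 0.19, adjusted p = 0.074 and 0.093).

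EGR1 was at 15.3 and 16.2 RPKM with sanguinarine, against 6.54 and 7.33 RPKM in control cells, a log2 change of 1.05 ± 0.14 (adjusted p = 2.9e-05). ARC had 131 and 90 reads with sanguinarine, against 3 and 6 reads in control cells. Per counted read the sum over both libraries was 23.1 times that of the control, with an exact 95% interval of 12 to 51.3 that covers counting error only, and the edgeR test gave an adjusted p of 2.27e-05. At 0.884 and 0.578 RPKM, ARC under sanguinarine was still the least abundant of the 10 genes.

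With cepharanthine 5 of the 10 genes were called, all of them higher than in control cells, where 3.56% of all genes tested were called and 2.60% were called higher. DUSP5 reached 43.1 and 42.6 RPKM with cepharanthine, against 22.5 and 22.8 RPKM in control cells (log2 change 0.89 ± 0.12, adjusted p = 4.89e-05). PHLDA1 reached 135 and 140 RPKM, against 94.8 and 92.9 RPKM in control cells (0.52 ± 0.08, adjusted p = 0.00033), and DUSP4 reached 56.0 and 52.6 RPKM, against 39.2 and 39.3 RPKM in control cells (0.44 ± 0.08, adjusted p = 0.0025). None of the 3 overlapped with the control. DUSP6 was at 22.5 and 22.6 RPKM with cepharanthine, against 17.2 and 17.3 RPKM in control cells (0.36 ± 0.10, adjusted p = 0.042), and IER3 was at 613 and 556 RPKM, against 436 and 449 RPKM in control cells (0.37 ± 0.09, adjusted p = 0.028). Leaving out any 1 of the 4 libraries ended the call of DUSP6, and DUSP4 and IER3 were each called after 1 of the 4 omissions, that of the second cepharanthine library. In the other 3 fits 2 of the 10 genes were called, DUSP5 and PHLDA1.

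EGR1 and ARC did not pass the test with cepharanthine. EGR1 was at 8.18 and 7.99 RPKM with cepharanthine, against 6.54 and 7.33 RPKM in control cells, a log2 difference of 0.19 with a 95% interval of -0.11 to 0.49 (adjusted p = 0.61). ARC had 1 and 7 reads, against 3 and 6 in control cells, and the ratio per counted read of 0.80 had an exact interval of 0.27 to 2.34. SPRY2, at 4.67 and 4.96 RPKM with cepharanthine and 3.55 and 3.92 RPKM in control cells, did not overlap but missed the threshold (log2 difference 0.34, adjusted p = 0.22), while SPRY4 differed by 0.19 (adjusted p = 0.55) and DUSP1 by -0.12 (adjusted p = 0.75).

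Evodiamine gave the largest EGR1 level in the first table. EGR1 was at 30.6 and 30.0 RPKM with evodiamine, against 6.54 and 7.33 RPKM in control cells, a log2 change of 2.07 ± 0.15 (adjusted p = 1.28e-08). ARC had 69 and 62 reads, against 3 and 6 in control cells, a ratio of 12.8 per counted read with an exact interval of 6.55 to 28.7 (adjusted p = 0.0009). In all, 7 of the 10 genes were called, 3 higher and 4 lower, where 11.4% of all genes tested were called, 5.30% higher and 6.13% lower. Most of the feedback genes that were called were lower. DUSP1 was at 51.7 and 52.7 RPKM with evodiamine, against 70.2 RPKM in each control library (log2 change -0.48, adjusted p = 0.025). DUSP6 was at 13.8 and 13.6 RPKM, against 17.2 and 17.3 RPKM in control cells (-0.39, adjusted p = 0.012), and SPRY4 was at 4.50 and 4.26 RPKM, against 6.03 and 6.17 RPKM in control cells (-0.54, adjusted p = 0.011). PHLDA1 was at 78.1 and 77.5 RPKM, against 94.8 and 92.9 RPKM in control cells (-0.33, adjusted p = 0.0098). DUSP5 was higher, at 28.7 and 31.6 RPKM against 22.5 and 22.8 RPKM in control cells (0.36, adjusted p = 0.048). The groups did not overlap for any of these genes, but with any 1 of the 4 libraries left out 2 of the 10 genes remained called, EGR1 and ARC, with the others at log2 changes close to those above. DUSP4 (-0.04), SPRY2 (-0.00) and IER3 (0.23) were not called. The alkaloid comparisons share their control libraries and so are not independent of each other.

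**Figure D2:**
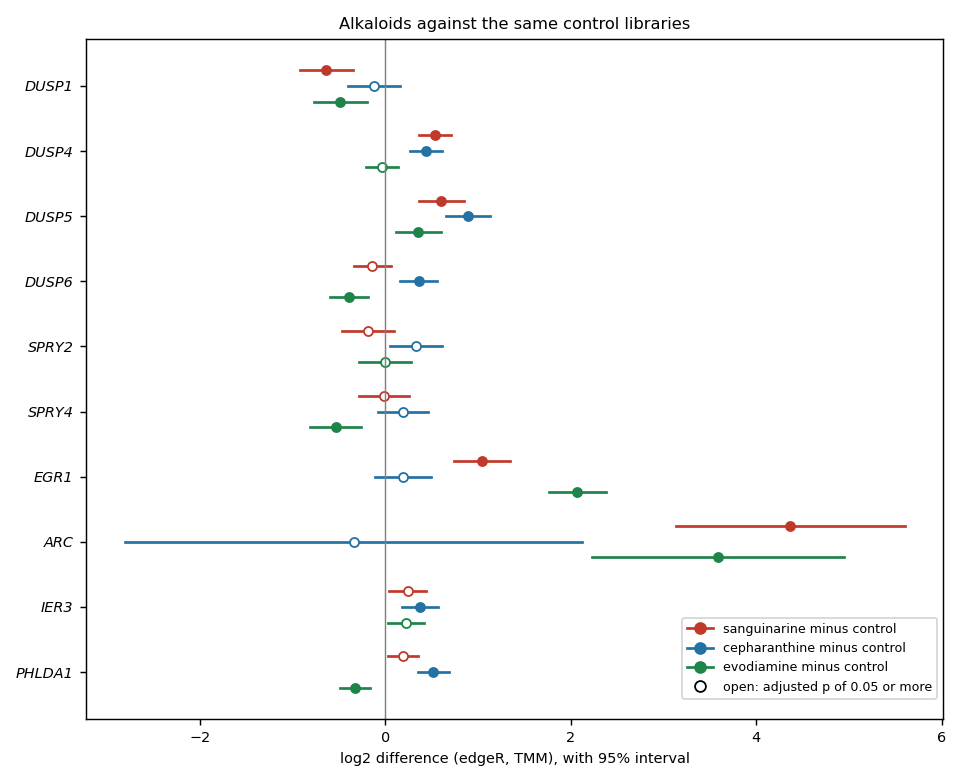
Log2 change of each gene against control for sanguinarine, cepharanthine and evodiamine, with bars showing the 95% interval of the edgeR fit (2 libraries per group) and filled points for called genes. EGR1 and ARC lie far right of 0 for sanguinarine and evodiamine, whereas DUSP6, SPRY4 and PHLDA1 lie right of 0 for cepharanthine and left of it for evodiamine.

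Cepharanthine (a bisbenzylisoquinoline alkaloid) and evodiamine (an indole alkaloid) were given at the same dose and time and could be compared directly, as 1 pair tested over all genes. With cepharanthine, 5 of the 10 genes were higher and 2 were lower than with evodiamine, where 14.1% of all genes tested were called, 8.28% higher and 5.79% lower. PHLDA1 was higher by 0.85 ± 0.08 on the log2 scale (adjusted p = 3.77e-07), DUSP6 by 0.75 ± 0.10 (1.87e-05) and SPRY4 by 0.73 ± 0.13 (0.00069), with 6.94 and 7.27 RPKM of SPRY4 under cepharanthine against 4.50 and 4.26 RPKM under evodiamine. DUSP5 was higher by 0.53 ± 0.11 (adjusted p = 0.003), a call lost without the first evodiamine library (adjusted p = 0.066), and DUSP4 by 0.48 ± 0.08 (adjusted p = 0.00043). EGR1 differed by -1.88 ± 0.15 (adjusted p = 2.81e-08). ARC, with 1 and 7 reads under cepharanthine and 69 and 62 reads under evodiamine, differed by -3.93 (adjusted p = 0.00032), and by -5.73 without the cepharanthine library with 7 reads and -3.22 without the one with 1 read. DUSP1, SPRY2 and IER3 missed the threshold (adjusted p = 0.085, 0.10 and 0.34), with differences of 0.36 (95% interval 0.08 to 0.64), 0.34 (0.06 to 0.62) and 0.15 (-0.05 to 0.34). That miss depended on the libraries fitted. All 10 genes were called in a fit to the first table's libraries alone, and 9 in a fit to the compared groups alone. Sanguinarine, a benzophenanthridine alkaloid, was used at a lower dose than the other alkaloids, so its values above stand beside theirs without a test.

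Among the partner drugs alone, JQ1 and panobinostat are inhibitors of different protein families, and 55.9% of all genes tested were called between them, 26.8% higher and 29.1% lower with JQ1. Of the 10 genes, 3 were higher and 2 lower with JQ1 than with panobinostat. DUSP1 was at 64.7 and 67.3 RPKM with JQ1, against 128 and 132 RPKM with panobinostat (log2 difference -0.81 ± 0.14, adjusted p = 3.81e-05). DUSP6 was at 7.68 and 8.15 RPKM with JQ1, against 15.2 and 16.6 RPKM with panobinostat (-0.84 ± 0.10, adjusted p = 4.75e-07). DUSP1 and DUSP6 were thus lower with JQ1, without overlap. The other phosphatases were not called by edgeR, DUSP4 differing by -0.10 (adjusted p = 0.34) and DUSP5 by 0.20 (adjusted p = 0.15). PHLDA1 was not called either (-0.08, adjusted p = 0.39). SPRY2 was higher with JQ1, at 3.19 and 3.17 RPKM against 1.83 and 2.15 RPKM with panobinostat (0.84 ± 0.14, adjusted p = 3.8e-05). ARC had 607 and 520 reads with JQ1, against 48 and 45 reads with panobinostat (3.73 ± 0.32, adjusted p = 5.93e-09). IER3 was higher by 0.26 (adjusted p = 0.026), although its RPKM values overlapped, at 201 and 193 with JQ1 and 177 and 194 with panobinostat, and the call was lost in 2 of the 4 fits that left out a library. SPRY4 and EGR1 each differed by 0.09 (adjusted p = 0.61 and 0.60), and by -0.07 each by library totals.

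Adding sanguinarine to JQ1 changed 7 of the 10 genes, 6 of them upward, where 30.0% of all genes tested were called, 16.2% higher and 13.8% lower. EGR1 was at 49.3 and 41.7 RPKM in the combination, against 11.01 and 11.25 RPKM with JQ1, a log2 change of 1.95 ± 0.15 (adjusted p = 5.05e-09). ARC had 17071 and 9545 reads in the combination (105 and 50.5 RPKM), against 607 and 520 reads with JQ1 (4.83 and 4.26 RPKM). Its log2 change was 4.01 ± 0.26 (adjusted p = 5.92e-10), and 3.37 without the higher combination library. The combination libraries differed from each other more for ARC than for any other of the 10 genes, yet the lower of them was above 10 times either JQ1 library.

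Among the feedback inhibitors DUSP6 and both Sprouty genes rose. DUSP6 was at 18.9 and 17.5 RPKM with sanguinarine and JQ1, against 7.68 and 8.15 RPKM with JQ1 (1.12 ± 0.10, adjusted p = 5.57e-08), and SPRY4 was at 4.49 and 3.27 RPKM, against 1.29 and 1.49 RPKM with JQ1 (1.40 ± 0.14, adjusted p = 2.97e-07). SPRY2 was at 5.03 and 4.73 RPKM, against 3.19 and 3.17 RPKM with JQ1 (0.54, adjusted p = 0.0048), a call that was lost without the first combination library (adjusted p = 0.051) or the second JQ1 library (0.060). In none of these did the groups overlap. IER3 was at 354 and 365 RPKM in the combination, against 201 and 193 RPKM with JQ1 (0.79, adjusted p = 3.04e-06). PHLDA1 went down, to 49.7 and 51.6 RPKM in the combination against 69.3 and 70.1 RPKM with JQ1 (-0.54, adjusted p = 3.2e-05).

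DUSP1, DUSP4 and DUSP5 were not called on this background. DUSP1 was at 81.5 and 57.5 RPKM in the combination, a range that enclosed the 64.7 and 67.3 RPKM of JQ1 alone. DUSP4 was at 20.7 and 22.1 RPKM, against 19.9 and 20.5 RPKM with JQ1, and DUSP5 was at 41.3 and 33.7 RPKM, against 39.2 and 36.0 RPKM with JQ1. Their log2 differences were -0.01, -0.00 and -0.08.

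Adding sanguinarine to panobinostat changed 4 of the 10 genes, 2 in each direction, where 22.9% of all genes tested were called, 11.5% higher and 11.4% lower. ARC had 1447 and 1204 reads in the combination, against 48 and 45 reads with panobinostat (log2 change 4.36 ± 0.31, adjusted p = 1.73e-08). EGR1 was at 23.8 and 16.5 RPKM, against 11.4 and 12.1 RPKM with panobinostat (0.68 ± 0.14, adjusted p = 0.0019), with 0.34 to 0.95 over the fits that left out a library. DUSP6 fell to 8.386 and 7.999 RPKM in the combination, against 15.2 and 16.6 RPKM with panobinostat (-1.07 ± 0.10, adjusted p = 5.38e-07). PHLDA1 fell to 42.7 and 47.5 RPKM, against 80.0 and 85.7 RPKM with panobinostat (-0.99 ± 0.08, adjusted p = 7.5e-08). For all 4 the groups did not overlap, and the calls held in each of the 4 fits that left out a library.

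The other 6 genes were not called between sanguinarine with panobinostat and panobinostat. Without the first combination library 7 of the 10 genes were called, DUSP1 (-0.48), DUSP5 (-0.31) and SPRY4 (0.47) being added, and without the second 5 were called, DUSP4 (-0.22) being added. SPRY4 was at 1.85 and 2.25 RPKM in the combination, against 1.51 and 1.42 RPKM with panobinostat (0.37, adjusted p = 0.067), and DUSP4 was at 21.9 and 23.8 RPKM, against 24.3 and 24.2 RPKM with panobinostat (-0.20, adjusted p = 0.081). DUSP1 was at 127 and 104 RPKM, against 128 and 132 RPKM with panobinostat (-0.29, adjusted p = 0.14). These 3 did not overlap either but missed the threshold. SPRY2 (-0.07), DUSP5 (-0.18) and IER3 (-0.12) overlapped between the groups.

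The combinations also differed from each other, in 9 of the 10 genes, 8 of them higher and 1 lower in sanguinarine with JQ1, where 52.9% of all genes tested were called, 25.4% higher and 27.5% lower. Sanguinarine with JQ1 was higher than sanguinarine with panobinostat by 1.45 ± 0.14 on the log2 scale for SPRY2 (adjusted p = 3.34e-08), 1.37 ± 0.14 for EGR1 (1.06e-07), 1.35 ± 0.10 for DUSP6 (9.18e-10), 1.16 ± 0.10 for IER3 (4.26e-09) and 1.13 ± 0.14 for SPRY4 (8.41e-07). ARC was higher by 3.38 (7.99e-10), and by 2.78 without the higher library of sanguinarine with JQ1. PHLDA1 was higher by 0.37 (adjusted p = 0.00056). DUSP1 was lower by 0.53, the log2 difference being -0.53 ± 0.14 (adjusted p = 0.0026), and this call was lost in 1 of the 4 fits without a library. DUSP5 was higher by 0.29 (adjusted p = 0.037), a call lost in 2 of those fits, and DUSP4 differed by 0.11 (adjusted p = 0.29). The calls of DUSP5 and PHLDA1 were also lost by library totals (0.09 and 0.17) and in the fit to the compared groups, which left 7 genes called, and that of DUSP5 was lost by DESeq2, by RLE scaling and in the fit to the second table, which left 8.

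Whether sanguinarine's change differed between backgrounds was tested as an interaction, the change on top of the partner drug minus the change on top of control. A constant log2 shift of one table against the other then cancels. A response to sanguinarine that differed between the tables does not cancel and cannot be told apart from the partner drug's part. With JQ1 as the partner, 9 of the 10 genes were called, against 18.1% of all genes tested (9.83% positive and 8.25% negative). The interaction was positive for SPRY4 (1.42 ± 0.19, adjusted p = 3.52e-05), DUSP6 (1.26 ± 0.14, adjusted p = 3.96e-06), EGR1 (0.90 ± 0.20), SPRY2 (0.73 ± 0.19), DUSP1 (0.63 ± 0.19) and IER3 (0.55 ± 0.13). It was negative for PHLDA1 (-0.73 ± 0.11), DUSP5 (-0.69 ± 0.16) and DUSP4 (-0.54 ± 0.12). The call of DUSP1 was lost in 6 of the 8 fits that left out a library, that of SPRY2 in 3 and that of IER3 in 1, so that 6 genes were called without the second JQ1 library. DUSP4 and DUSP5 rose with sanguinarine alone and were not called on top of JQ1. DUSP6, SPRY2, SPRY4 and IER3 rose on top of JQ1 and were not called with sanguinarine alone.

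With panobinostat as the partner, 4 of the 10 genes were called, all negative, against 16.6% of all genes tested (7.91% positive and 8.65% negative). These were PHLDA1 (-1.18 ± 0.11, adjusted p = 1.2e-06), DUSP6 (-0.93 ± 0.14, adjusted p = 0.00014), DUSP5 (-0.78 ± 0.16, adjusted p = 0.0024) and DUSP4 (-0.74 ± 0.12, adjusted p = 0.00023). For EGR1 the interaction was -0.37 (adjusted p = 0.23), and -0.71 (adjusted p = 0.00032) without the first library of sanguinarine with panobinostat, where IER3 was called as well (-0.47). Without the second of those libraries DUSP1 was called (0.52). DUSP6 thus had interactions of opposite sign with the partner drugs, and the lower of the pair of groups on each background, JQ1 alone at 7.92 ± 0.34 and sanguinarine with panobinostat at 8.19 ± 0.27 RPKM, lay close together, as did the higher, sanguinarine with JQ1 at 18.2 ± 0.9 and panobinostat at 15.9 ± 1.0 RPKM.

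ARC rose with sanguinarine on every background. Its log2 change with sanguinarine was 4.01 on JQ1, 4.36 on panobinostat and 4.37 on control. The interaction was -0.35 with JQ1 (95% interval -1.61 to 0.91) and -0.01 with panobinostat (-1.32 to 1.30), with 9 reads in all in the control libraries. These intervals were built from the SEs of the component changes, unlike the other intervals. With SEs taken from F, the edgeR fit gave -2.01 to 1.30 with JQ1 and -0.52 to 0.50 with panobinostat. The latter rests on an SE of 0.25, below the SE of 0.59 for sanguinarine alone against control, which is part of that interaction. An SE from F is unreliable for a change so close to none, so that interval is too narrow and is not used.

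**Figure D3:**
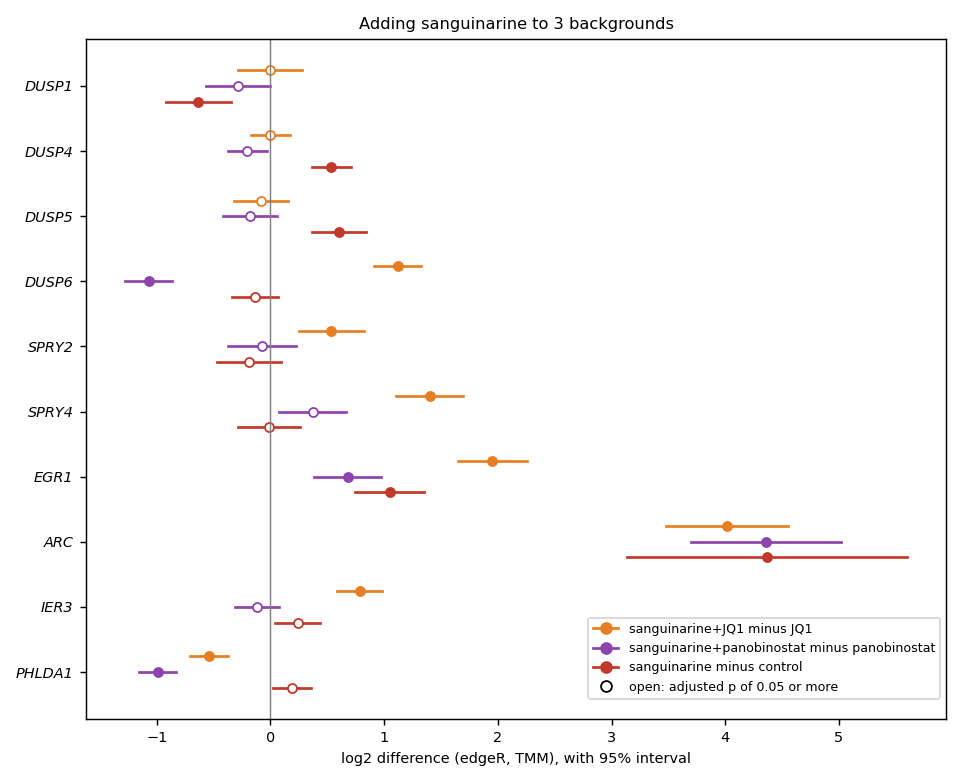
Log2 change with sanguinarine for each gene on JQ1, on panobinostat and on control, with 95% intervals of the edgeR fit (2 libraries per group) and filled points for called genes. ARC lies near 4 on all backgrounds, DUSP6 lies above 0 on JQ1, below 0 on panobinostat and near 0 on control, and PHLDA1 lies below 0 on both partner drugs.

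Other genes of the pathway were followed in lists chosen with earlier results of these data known. The shares of all tested genes called higher and lower, were 11.7% and 10.3% for sanguinarine, 2.60% and 0.961% for cepharanthine, 5.30% and 6.13% for evodiamine, 16.2% and 13.8% for sanguinarine on JQ1 and 11.5% and 11.4% for sanguinarine on panobinostat, and they are the background for every count below. Of 16 further feedback inhibitors tested, 4 rose and 2 fell with sanguinarine against control, where 22.0% of all genes were called. The EGFR inhibitor ERRFI1 rose by 1.00 ± 0.14, SPRED3, a relative of the Sproutys, by 1.35 ± 0.28 and DUSP8 by 0.70 ± 0.15 on the log2 scale, whereas the phosphatase DUSP9 fell by 1.03. The median of this list was 0.00, against 0.01 for all genes tested. With cepharanthine 2 rose and 1 fell (ERRFI1 0.86, DUSP10 0.71, DUSP9 -0.82), and with evodiamine 1 rose, DUSP10 by 0.61. On JQ1, 5 of the 16 rose with sanguinarine and 0 fell, ERRFI1 again by 1.01 and DUSP9 by 1.09, with a list median of 0.35 against 0.02 for all genes. On panobinostat 1 rose, LRIG1 by 0.48, where 22.9% of all genes were called, and the median was -0.07 against 0.06 for all genes.

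ERK output genes, 12 transcripts that ERK activity induces, gave 9 higher and 0 lower in sanguinarine with JQ1 against JQ1, where 16.2% of all genes were called higher, with a median of 0.79 against 0.02 for all genes. The ETS factor ETV4 was at 5.74 and 6.44 RPKM in the combination, against 0.935 and 1.27 RPKM with JQ1 (2.39 ± 0.13). FOSL1, an AP-1 subunit, was at 42.3 and 35.0 RPKM, against 8.05 and 7.42 RPKM with JQ1 (2.24 ± 0.12), and the cytokine LIF rose by 1.71. In sanguinarine with panobinostat against panobinostat 3 were higher and 1 lower, where 11.5% and 11.4% of all genes were, with a median of 0.22 against 0.06 for all genes: FOSL1 rose by 1.76 and the neuropeptide precursor VGF by 1.60, while the cyclin CCND1 fell by 0.53. For the alkaloids alone the counts were 3 higher and 2 lower with sanguinarine (VGF 1.93, EPHA4 -1.08), 4 higher and 1 lower with cepharanthine (MAFF 0.62, EPHA4 -1.28) and 2 higher and 0 lower with evodiamine (VGF 2.86, FOSL1 0.74), beside 22.0%, 3.56% and 11.4% of all genes called with these alkaloids.

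Of the other 28 immediate early genes tested, 11 rose and 4 fell with evodiamine, where 5.30% of all genes rose and 6.13% fell. The EGR1 relatives EGR2, EGR3 and EGR4 were called, but from few reads: EGR4 had 69 and 39 reads with evodiamine against 7 and 3 in control cells, and EGR3 had 20 and 19 reads against 0 and 1. The nuclear receptor NR4A3 rose by 2.38 ± 0.20. With sanguinarine alone 12 rose and 1 fell, beside 11.7% and 10.3% of all genes, EGR4 by 2.12 from 27 and 25 reads against 7 and 3 in control cells, KLF4 by 0.87 and TRIB1 by 0.61, while the kinase PLK2 fell by 0.89. With cepharanthine 6 rose and 6 fell, beside 2.60% and 0.961% of all genes (NR4A2 0.89, KLF2 -1.22, PLK2 -1.03). In sanguinarine with JQ1 against JQ1, 9 rose and 5 fell, beside 16.2% and 13.8% of all genes. EGR4 had 174 and 100 reads in that combination against 1 and 6 with JQ1, EGR3 had 151 and 81 reads against 1 and 10, and EGR2 had 101 and 46 reads against 2 and 5. In sanguinarine with panobinostat against panobinostat 7 rose and 10 fell, beside 11.5% and 11.4% of all genes. There EGR4 had 120 and 75 reads in the combination against 9 and 2 with panobinostat (3.64 ± 0.63), and KLF2 fell by 1.04.

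Of the 7 AP-1 genes, whose products pair to bind AP-1 sites, 4 rose and 0 fell with sanguinarine alone, with evodiamine and in sanguinarine with JQ1 against JQ1, where 11.7%, 5.30% and 16.2% of all genes were called higher. With cepharanthine 0 of the 7 were called by edgeR, 2 had an unadjusted p under 0.05 and 1 was called by DESeq2. ATF3, a stress-induced member, was at 10.6 and 11.3 RPKM with evodiamine and 6.18 and 6.19 RPKM with sanguinarine, against 1.90 and 1.86 RPKM in control cells (2.48 ± 0.15 and 1.58 ± 0.15). FOSB rose by 2.79 with evodiamine and 0.99 with sanguinarine. In sanguinarine with JQ1, JUN was at 69.5 and 54.4 RPKM, against 18.2 and 18.6 RPKM with JQ1 (1.67 ± 0.13), and FOS rose by 1.25. In sanguinarine with panobinostat against panobinostat 3 rose and 1 fell: FOSB rose by 1.42, FOS by 1.36 and ATF3 by 0.87, while JUNB fell by 1.24.

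Among 10 growth factor ligands tested, 6 rose and 1 fell in sanguinarine with JQ1 against JQ1, where 16.2% and 13.8% of all genes did. Epigen (EPGN), a ligand of EGFR, had 235 and 457 reads in the combination against 6 and 16 with JQ1, and AREG, another, rose by 1.26. In sanguinarine with panobinostat against panobinostat 1 rose and 6 fell, where 11.5% and 11.4% of all genes did: EPGN rose by 1.20 while EREG fell by 0.86 and HBEGF by 0.67. With the alkaloids alone 4 rose and 3 fell with sanguinarine (EPGN 1.61, NRG1 -1.30), 0 rose and 2 fell with cepharanthine (NRG1 -1.19, KITLG -0.70) and 3 rose and 0 fell with evodiamine (EREG 1.71, EPGN 1.09). Of 23 kinases, adaptors and other core members of the RAS to ERK chain, 0 rose and 4 fell with sanguinarine (HRAS by 0.38 and GRB2 by 0.33 among them), where 22.0% of all genes were called, and 1 rose with evodiamine (KSR1, 0.76), where 11.4% were. With cepharanthine 0 of the 23 were called by edgeR or DESeq2 and 3 had an unadjusted p under 0.05. In sanguinarine with JQ1 against JQ1, 3 of the 23 rose and 5 fell (NRAS by 0.46 among them), where 30.0% of all genes were called, and in sanguinarine with panobinostat against panobinostat 2 rose and 4 fell, where 22.9% were. Beside the same shares, of 14 growth factor receptors tested 2 rose and 5 fell on JQ1 and 3 rose and 3 fell on panobinostat, and of 10 genes of the p38 and JNK chains 2 rose and 1 fell on JQ1 and 0 rose and 1 fell on panobinostat.

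**Figure D4:**
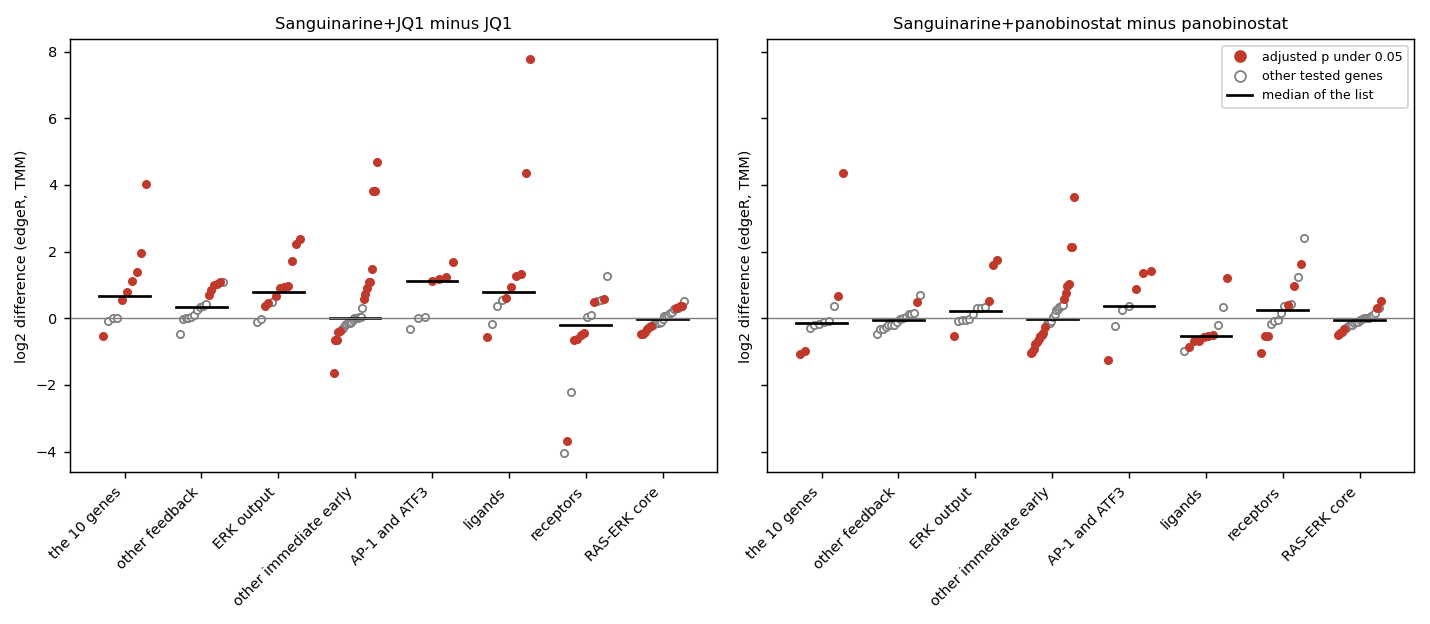
Log2 difference of each tested gene (1 point per gene, filled in red where called by edgeR at an adjusted p under 0.05) in each pathway list for sanguinarine with JQ1 against JQ1 (left) and sanguinarine with panobinostat against panobinostat (right), with a black line at the median of the list. The ERK output list has 9 of 12 genes called higher in the left panel and 3 of 12 in the right, and the topmost ligand on the left, EGF, had 0 reads in both JQ1 libraries, so its height has no fixed size.

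Likeness between genes was measured as the mean absolute difference over 16 libraries in log2 CPM (counts scaled to the library total after TMM scaling), after the mean of each table was taken off for each gene. The tested genes nearest to EGR1 were ATF3 at 0.28, JHDM1D-AS1 at 0.29 and HMP19 at 0.30. Those nearest to SPRY2 were PLAUR and the ETS factor gene ETV5, both at 0.11, and TMEM170A at 0.12. DUSP6 was nearest to TMEM171 (0.16), PHLDA1 to ZFP36L1 (0.11) and DUSP4 to MEGF9 (0.08). ARC had no close neighbour, the chemokine genes CCL5 and CCL3 being nearest at 0.98 and 1.01. Within the set, DUSP4 and DUSP5 lay 0.18 apart, closer than DUSP1 to any other of the 10 genes (0.33 to 2.25). Many genes outside the set lay closer still. By nearness among the 22263 genes tested, DUSP5 ranked 573 for DUSP4, and DUSP4 ranked 76 for DUSP5. All points share libraries and tables, so these values only describe the 16 libraries.

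IER3 and PHLDA1 overlap genes on the opposite strand that took up to 11.5% and 13.3% of the reads of the pair, with 47 to 82 and 15 to 54 reads in the first table but 1024 to 2976 and 1481 to 2992 in the second, and the sources used here do not say whether reads were counted by strand. SPRY4 overlaps SPRY4-IT1 on the same strand, which took at most 3.15% of the pair's reads. The part of these overlaps in the changes of IER3, PHLDA1 and SPRY4 was not tested.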

How the data were processed

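The deposited tables hold counts, whole numbers of reads per gene and library, and RPKM, which the authors scaled to gene model length and counted reads, per the file headers. RPKM recomputed from the counts differed by at most a relative 5.1e-15. Per the submitters' processing notes, reads were mapped with STAR 2.5.1 to GRCh38 and tested with DESeq2. The sources used here name no counting tool or strand setting. Positions listed for the genes overlapped the RefSeq GRCh38 gene of the same name for 0 of the 10 members, so none is printed.

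Counts of 16 libraries were fitted in 1 edgeR 4.0.16 quasi-likelihood model in R 4.3.3 (a term per group, TMM scaling, filterByExpr), which left 22263 genes. The fit was tested on simulated data that had the same spread in every group. That simulation could not test the effect of groups with unlike spreads. P values were adjusted by Benjamini-Hochberg over all genes within a comparison and called under 0.05. SE is the absolute log2 change over the square root of F, and intervals are at 95%. For the ARC interactions the SE was the root of the summed squares of the component SEs. Their intervals used the normal distribution in place of the t distribution used for the other edgeR intervals. The 10 comparisons included 2 interactions. Alternatives were DESeq2 1.42.0, RLE scaling, library totals, no filter, smaller fits, a block by title number and leaving out each library. Libraries were grouped by treatment label. Titles number the second table's libraries 1 and 2. Deviations of same-numbered libraries correlated between -0.03 and 0.07, so the numbers were not used as pairs.

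All 10 members are named. From each further list, the called genes with the largest changes are named, up to 4 per comparison. The members, lists and tests were chosen with earlier results of these data known. Intervals of counts cover counting error only. Some results are not reported here.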

Additional observations from a re-analysis of the deposited data

Results flagged for a closer look

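For 9 of the 10 genes the log2 change with sanguinarine on top of JQ1 differed from that on top of control by the edgeR interaction test, where 18.1% of all genes tested did: SPRY4 by 1.42, DUSP6 by 1.26, EGR1 by 0.90, SPRY2 by 0.73, DUSP1 by 0.63 and IER3 by 0.55 upward, and PHLDA1 by -0.73, DUSP5 by -0.69 and DUSP4 by -0.54. With 1 of 8 libraries left out in turn, the call of DUSP1 was lost in 6 fits, that of SPRY2 in 3 and that of IER3 in 1. For 4 genes the change on top of panobinostat differed from that on top of control, where 16.6% of all genes tested did: PHLDA1 by -1.18, DUSP6 by -0.93, DUSP5 by -0.78 and DUSP4 by -0.74. DUSP6 is the gene whose interactions had opposite signs with the partner drugs and were both called, and both calls held in every fit that left out 1 of the 8 libraries of that interaction. In every interaction the partner drug's part cannot be told apart from a response to sanguinarine that differed between the tables.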

How the results depend on the processing

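No alternative turned the direction of a called change of the 10 genes: 37 values changed sign, 0 of them called in the 16-library fit. Duplicates alone limit every test, and the sanguinarine with panobinostat pair was the least alike. Members called with 1 library left out were 5 to 5 for sanguinarine against control (all genes 2602 to 2744), 2 to 4 for cepharanthine (337 to 434), 2 to 2 for evodiamine (1065 to 1250), and 6 to 7 for cepharanthine against evodiamine (1460 to 1685). They were 6 to 7 for sanguinarine with JQ1 against JQ1 (4464 to 5093), 4 to 7 for sanguinarine with panobinostat against panobinostat (2088 without the second panobinostat library to 7739 without the second combination library), 4 to 5 for JQ1 against panobinostat (10299 to 10737), 8 to 9 between the combinations (9600 to 11906), and 6 to 9 (2618 to 3443) and 4 to 6 (2084 to 6263) for the interactions with JQ1 and panobinostat.

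For sanguinarine against control 4895 genes were called, 7853 from that table's libraries alone and 8752 from the compared groups alone, which gave 8 members in place of 5. For cepharanthine 793 were called, 1214 by DESeq2, 3133 from the table and 2462 from the compared groups, and RLE scaling gave 3 members in place of 5. For evodiamine 2546 were called, 5575 from the table and 6122 from the compared groups, and for cepharanthine against evodiamine 3131, 6268 and 5437. The latter comparison gave 10 members from the table and 9 from the compared groups in place of 7. For sanguinarine with panobinostat against panobinostat 5107 were called, 3205 from the table and 1936 from the compared groups, which gave 3 members in place of 4. From the compared groups the interactions gave 6520 genes with JQ1 in place of 4025 and 2187 with panobinostat in place of 3686. The cause was not tested. The fit to the compared groups filtered out ARC for cepharanthine against control.

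The uncalled values that changed sign were these, on the log2 scale. By library totals they were, against control, SPRY4 with sanguinarine (0.121), DUSP4 (0.020) and SPRY2 (0.052) with evodiamine, then DUSP1 (0.073) and DUSP4 (0.080) in sanguinarine with JQ1 against JQ1, SPRY2 (0.046) in sanguinarine with panobinostat against panobinostat, SPRY4 (-0.072) and EGR1 (-0.073) in JQ1 against panobinostat and DUSP4 (-0.095) between the combinations. SPRY2 with evodiamine was 0.001 by DESeq2, 0.002 by RLE scaling and from the compared groups, 0.012 without a filter and 0.010 from the table. DUSP1 and DUSP4 on JQ1 were 0.030 and 0.034 without a filter and 0.010 and 0.012 from the table, and SPRY4 with sanguinarine was 0.009 from the table. The ARC interaction with panobinostat was 0.011 by RLE scaling. Over the fits with 1 library left out, values that took both signs ran from -0.437 to 0.332 for that interaction, from -0.992 to 0.093 for the ARC interaction with JQ1, from -2.141 to 0.375 for ARC with cepharanthine and from -0.071 to 0.068 for SPRY2 with evodiamine. On JQ1 they ran from -0.301 to 0.244 for DUSP1, -0.027 to 0.025 for DUSP4 and -0.258 to 0.075 for DUSP5, and on panobinostat from -0.201 to 0.014 for SPRY2, whose interaction ran from -0.002 to 0.238.

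Deviations of same-numbered libraries in the second table correlated little, which does not exclude pairing. A block by title number raised the genes called from 6681 to 7164 for sanguinarine on JQ1 and from 5107 to 5763 on panobinostat. It raised them from 12443 to 12633 for JQ1 against panobinostat and from 11781 to 12007 between the combinations. For the interactions they went from 4025 to 4630 with JQ1 and from 3686 to 4388 with panobinostat. With the replicate number as a block, 59 of 60 values of the 10 genes kept their side of the threshold, and IER3 passed it in the interaction with panobinostat (-0.36, adjusted p = 0.0448 by edgeR).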
